A study of Cricetulus griseus with 6 samples.

Results

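The expression of AP-1, *Egr1* and immediate early response genes was examined in CHO-T cells 48 h after transfection, with 3 libraries from cells given negative control siRNA and 3 from cells given *Xbp1* siRNA. The CHO-T line derives from Chinese hamster ovary cells and carries the cDNA of mouse T-cadherin (*Cdh13*) from a retrovirus, and both groups share this background. The 10 genes were listed by name, chosen by the fold change between *Xbp1* siRNA and control siRNA in these same libraries, so their differences between the conditions are a description and carry no test. Of the 10 genes, *Fos*, *Fosb*, *Fosl1*, *Fosl2*, *Junb*, *Egr1* and *Ier3* were found by symbol, which makes 7 of the 27873 entries in the files. A further entry, LOC103161436, bears the RefSeq gene ID of *Ier2* and is described under that name, outside the counts. *Jun* and *Jund* matched no entry and were not analysed here.

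AP-1 is a family of dimeric transcription factors formed by FOS proteins, which need a partner, and JUN proteins, which can also pair with each other. Immediate early genes are transcribed within minutes of a growth factor, cytokine or stress signal without new protein synthesis, mostly through the ERK, JNK and p38 kinases acting on factors bound near their promoters. EGR1 is a zinc-finger transcription factor of the same early wave. In cells growing in serum, FOS and FOSB transcripts are known to be short-lived, while FOSL1 is known to be kept at a steadier level by continued ERK signalling.

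Levels are given in FPKM (fragment counts scaled by transcript length and by sequencing depth), so genes can be set side by side. The silenced gene was checked first. *Xbp1* stood at 26.8 ± 1.35 FPKM (SD, n = 3) with control siRNA against 1.89 ± 0.440 FPKM (SD, n = 3) with *Xbp1* siRNA. The sum over all entries lay between 646651 and 666267 FPKM in the control libraries and between 593487 and 600986 FPKM with *Xbp1* siRNA, while the median log2 fold change of all 14361 genes tested was 0.01. Depth is not stated in the files. Steps in the lowest values put the depth of the other 5 libraries between 94.0% and 116% of that of control replicate 1. Of the cell type markers, *Ptprc*, *Cdh5*, *Fshr*, *Col1a1* and *Col1a2* were listed at 0 in all 6 libraries. Of the 2 granulosa cell markers with an entry, *Fshr* was thus at 0, while *Amh* had between 2.07 and 3.16 FPKM with control siRNA and between 2.35 and 3.55 FPKM after silencing. Of 3 epithelial markers, the 2 with an entry (*Epcam* and *Cdh1*) summed to between 1.83 and 2.16 FPKM with control siRNA and between 4.59 and 5.79 FPKM with *Xbp1* siRNA. The summed level of 4 mesenchymal markers, 2 of them above 0, ran from 369 to 389 FPKM in control libraries and from 296 to 319 FPKM after silencing. That sum was nearly all *Vim*, since *Acta2* had at most 0.218 FPKM. The summed level of 2 leukocyte markers, of which only *Cd68* was above 0, ran from 5.18 to 6.15 FPKM and from 6.99 to 8.80 FPKM. The endothelial markers *Cdh5* and *Pecam1* summed to between 0.0472 and 0.268 FPKM in control libraries and to between 0 and 0.0452 FPKM after silencing. All 6 libraries come from the CHO-T line, so these are levels of the markers within that line. Their part in the results below was not tested. In such bulk libraries, fewer cells with a marker cannot be told apart from less RNA per cell.

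Differences were computed with limma on log2(FPKM + 0.1), a scale that understates the change of weakly expressed genes. Calls required both an adjusted p (Benjamini-Hochberg) under 0.05 and a log2 fold change of at least 1 in size. All 7 genes found by symbol passed the filter on low values (mean FPKM of at least 0.1), *Fosb* barely, with a mean of 0.110 FPKM. Of the 7, *Egr1* and *Ier3* were called lower with *Xbp1* siRNA and 0 were called higher by limma, nor did any of them lie higher at an unadjusted p under 0.05. Over all genes tested, 2.50% were called lower and 2.69% higher. By the adjusted p alone, *Fosl1* and *Junb* were lower too, which makes 4 of 7 lower and 0 higher, beside 20.2% of all genes lower and 20.2% higher. With no overlap between the conditions, 25.8% of all genes tested lay lower and 26.1% higher. Since the genes were chosen on this contrast, nothing is read from these counts. The median log2 fold change of the 7 genes was −0.64, beside 0.01 over all genes tested. Without *Fosb*, which lies at the floor of detection, it was −0.69.

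**Figure D1:**
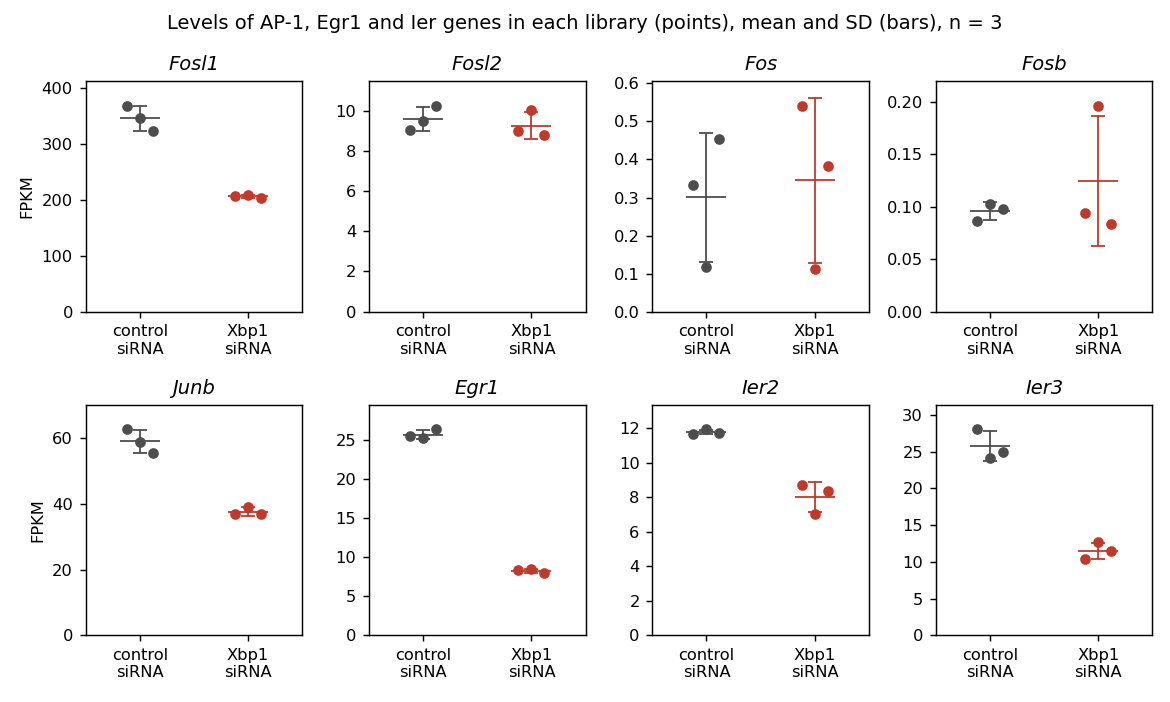
FPKM (vertical axes, each from 0) of the 8 genes in control siRNA and Xbp1 siRNA libraries; points are libraries, horizontal marks the mean and bars the SD (n = 3). The 2 conditions do not overlap for Fosl1, Junb, Egr1, Ier2 and Ier3, and overlap for Fosl2, Fos and Fosb.

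In control cells, the order of levels was *Fosl1*, *Junb*, then *Ier3* and *Egr1*, then *Ier2*, *Fosl2*, *Fos* and *Fosb*. *Fosl1* ranked 228th by control mean among the 14361 genes tested and *Junb* 2032nd. *Ier3* and *Egr1*, with means of 25.7 FPKM each, did not differ beyond their spread. *Fos* and *Fosb* lay below 1 FPKM in each library. With *Xbp1* siRNA the top of the order was as before, but *Fosl2* (8.77 to 10.01 FPKM) stood above *Egr1* (8.003 to 8.50 FPKM), and *Ier2* (7.05 to 8.70 FPKM) overlapped with *Egr1*.

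*Fosl1*, which encodes FRA-1, a FOS protein without the transactivation domain of FOS, was the most abundant gene of the group. It had 368, 347 and 323 FPKM in control replicates 1, 2 and 3 and 207, 209 and 203 FPKM in *Xbp1* siRNA replicates 1, 2 and 3. The conditions did not overlap, and the libraries with *Xbp1* siRNA lay closer together (206 ± 2.68 FPKM, SD, n = 3) than those with control siRNA (346 ± 22.6 FPKM, SD, n = 3). The level with *Xbp1* siRNA was 59.7% of the control, a log2 fold change of −0.74 (standard error 0.05).

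*Fosl2*, which encodes the related FRA-2, had 9.04, 9.47 and 10.2 FPKM with control siRNA and 8.996, 10.01 and 8.77 FPKM with *Xbp1* siRNA. The conditions overlapped, and the log2 fold change was −0.05 (standard error 0.08). *Fos*, the founding member of the family, had 0.333, 0.118 and 0.453 FPKM with control siRNA and 0.541, 0.113 and 0.382 FPKM with *Xbp1* siRNA. Its values stood at 3, 1 and 4 whole steps with control siRNA and at 5, 1 and 4 with *Xbp1* siRNA. A step is 1 read or more, and a difference was not detectable at this depth. The log2 fold change of *Fos* ran from −0.28 to 0.57 over the fits without 1 library. *Fosb* had between 0.0834 and 0.196 FPKM in the 6 libraries. Its values lay at 0.894, 1.00 and 0.995 times a common step in the control libraries and at 1.00, 1.99 and 1.00 times it with *Xbp1* siRNA. Such values are close to 1 or 2 steps a library, so no fold is given.

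*Fosl1* therefore made up nearly the whole FOS family at the level of mRNA. Its share of the summed FPKM of the 4 *Fos* genes was 97.5%, 97.3% and 96.8% in the control libraries, beside 95.6%, 95.3% and 95.7% with *Xbp1* siRNA. The share of *Fosl2* was 2.71% ± 0.340 (SD, n = 3) with control siRNA and 4.28% ± 0.248 (SD, n = 3) with *Xbp1* siRNA. The summed level of the family was 356 ± 21.9 FPKM (SD, n = 3) and 216 ± 3.20 FPKM (SD, n = 3), that is 60.7% of the control. The sum followed *Fosl1*, and the larger share of *Fosl2* came with a lower *Fosl1*.

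*Junb* was the only JUN gene with an entry. JUNB pairs with FOS proteins and is known for a weaker activity than JUN at many sites. *Junb* had 62.7, 58.8 and 55.6 FPKM with control siRNA and 37.0, 39.2 and 37.0 FPKM with *Xbp1* siRNA, without overlap. The level was 63.9% of the control, a log2 fold change of −0.64 (standard error 0.05). *Fosl1* and *Junb* were lower by similar proportions. The ratio of *Fosl1* to *Junb* FPKM was 5.87, 5.90 and 5.81 in the control libraries, beside 5.60, 5.33 and 5.51 with *Xbp1* siRNA. Among the control libraries the 2 genes were both highest in replicate 1 and lowest in replicate 3. Other genes, *Vim* and *Actb* among them, had the same order, so it is not particular to this pair.

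*Egr1* had the largest log2 fold change of the 7 genes for which one is given. It had 25.5, 25.2 and 26.4 FPKM in the control libraries, beside 8.32, 8.50 and 8.003 FPKM with *Xbp1* siRNA. The conditions were far apart compared with the spread within each, and the level with *Xbp1* siRNA was 32.2% of the control. The log2 fold change was −1.62 (standard error 0.05) and ran from −1.64 to −1.53 over the alternative settings, the fits without 1 library among them.

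*Ier3* encodes a short-lived early response protein linked to cell survival, and is induced by NF-kB as well as by ERK. It had 28.0, 24.2 and 25.0 FPKM with control siRNA and 10.4, 12.7 and 11.4 FPKM with *Xbp1* siRNA, without overlap. The level was 44.6% of the control and the log2 fold change −1.16 (standard error 0.09). In the RefSeq gene table (assembly CriGri-PICRH-1.0, used for names and neighbours only) *Ier3* overlaps with *Zc3h13*, which had 21.96 FPKM with control siRNA and 16.0 FPKM with *Xbp1* siRNA, giving a log2 fold change of −0.45, and how reads were divided between them was not tested. None of the other 7 genes overlaps with another gene in that table. The entry of *Ier2*, which encodes a nuclear early response protein, had 11.7, 11.9 and 11.7 FPKM with control siRNA and 8.70, 7.05 and 8.35 FPKM with *Xbp1* siRNA. Its log2 fold change was −0.55 (standard error 0.09), and it was not called.

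**Figure D2:**
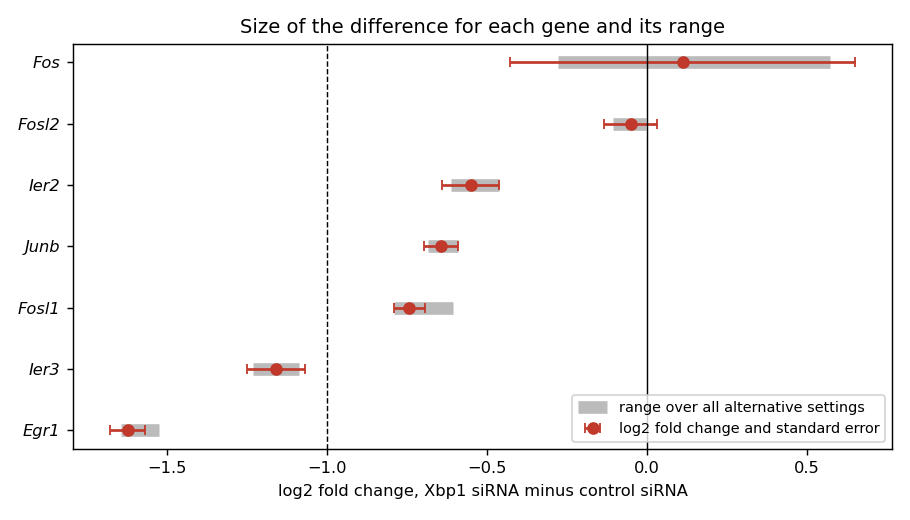
Log2 fold change, Xbp1 siRNA minus control siRNA (horizontal axis), of 7 of the genes, without Fosb; points with bars give the estimate and its standard error, grey bands the range over all alternative settings, and the dashed line the fold limit of the calls. Egr1 and Ier3 lie beyond −1 under each setting, while the band of Fos crosses 0.

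The spread within conditions was not used to choose the genes. On the log2 scale the residual SD was 0.04 for *Egr1*, 0.07 for *Fosl1* and *Junb*, 0.10 for *Fosl2*, 0.11 for *Ier2* and 0.13 for *Ier3*, beside a median of 0.09 over the 11610 genes tested with a mean of at least 1 FPKM. It was 0.76 for *Fos*, which rests on values of a few steps. Averaged over the 6 genes with a mean of at least 1 FPKM, the deviation of a library from its condition mean lay between −0.02 and 0.03 on the log2 scale. *Xbp1* siRNA replicate 2 was above its condition mean for 5 of the 6 genes, with *Ier2* below it by −0.18, and replicate 3 for 1 of the 6.

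The other *Egr* and *Ier* genes were taken from a list of 28 further immediate early genes, of which 24 were tested. *Egr2* had 3.05, 2.96 and 3.42 FPKM with control siRNA and 1.47, 1.24 and 0.988 FPKM with *Xbp1* siRNA, a log2 change of −1.30 (limma, adjusted p = 9.10e-04). *Egr3* had 1.94, 1.91 and 1.37 FPKM with control siRNA and 0.677, 0.735 and 0.644 FPKM with *Xbp1* siRNA, a log2 change of −1.21 (limma, adjusted p = 0.00259). Both were called lower and did not overlap between the conditions. The 3 *Egr* genes summed to 30.6 ± 0.530 FPKM (SD, n = 3) with control siRNA against 10.2 ± 0.483 FPKM (SD, n = 3) with *Xbp1* siRNA. *Egr1* made up 84.0% of that sum with control siRNA and 81.2% with *Xbp1* siRNA.

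*Ier5l* was called lower, with 3.41 ± 0.350 FPKM (SD, n = 3) against 1.45 ± 0.131 FPKM (SD, n = 3) and a log2 change of −1.18 (limma, adjusted p = 5.46e-04). *Ier5* had a log2 change of −0.91 (limma, adjusted p = 5.90e-04), under the fold limit. The 4 *Ier* genes with an entry summed to 58.1, 52.3 and 55.1 FPKM with control siRNA and 27.2, 29.7 and 28.7 FPKM with *Xbp1* siRNA, or 51.7% of the control. With a pseudocount of 1, *Egr2*, *Egr3* and *Ier5l* fell short of the fold limit, with log2 fold changes of −0.90, −0.69 and −0.85.

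**Figure D3:**
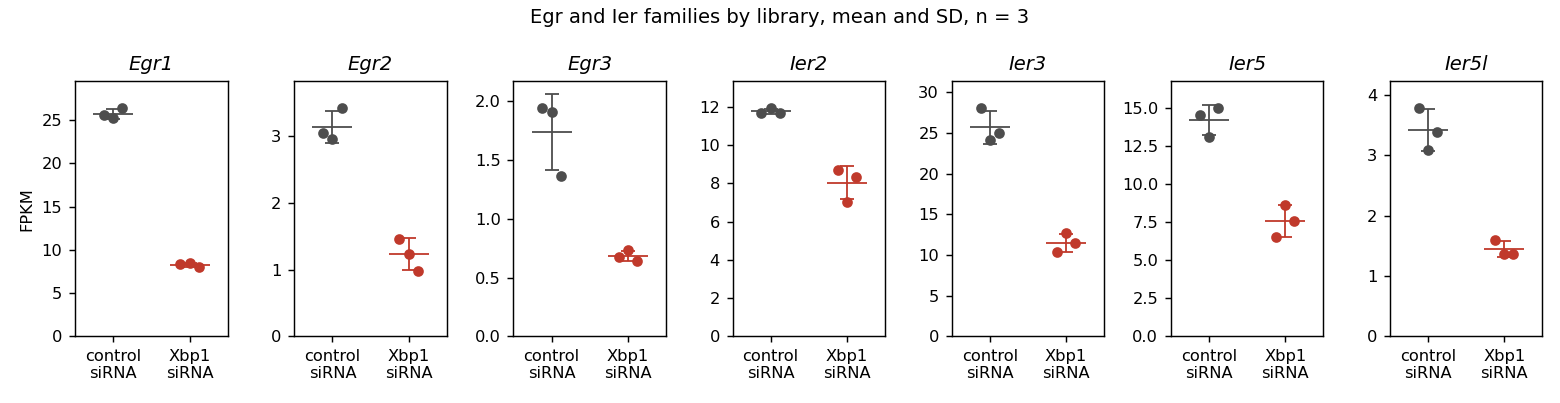
FPKM (vertical axes, each from 0) of 3 Egr and 4 Ier genes by condition; points are libraries, horizontal marks the mean and bars the SD (n = 3). In each of the 7 genes the libraries with Xbp1 siRNA lie below all control libraries, as they do for 25.8% of all genes tested.

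The direction was not shared by the whole list of further immediate early genes. Of the 24 tested, 3 were called lower and 1 higher. By the adjusted p alone, 8 were lower, 5 higher and 11 did not pass, with a median log2 fold change of −0.02. The gene called higher was *Dusp1*, which encodes a phosphatase that inactivates p38, JNK and ERK. It rose to 12.2 ± 0.173 FPKM (SD, n = 3), from a control level of 5.35 ± 0.789 FPKM (SD, n = 3), with a log2 change of 1.18 (limma, adjusted p = 1.44e-04).

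Genes that pair with FOS or JUN proteins in other dimers (the ATF, BATF and MAF families and *Jdp2*) were listed as 16 genes, of which 10 were tested and 0 were called by limma. By the adjusted p alone 3 were lower, all of them small MAF genes, and 3 higher. *Mafk* had a log2 fold change of −0.72, *Mafg* of −0.46 and *Maff* of −0.39. The 3 higher ones, *Batf* with 0.45, *Batf2* with 0.40 and *Jdp2* with 0.36, encode factors that are known to pair with JUN proteins. At an unadjusted p under 0.05 the count was 7, with 4 lower and 3 higher. By the adjusted p alone, 20.2% of all genes were lower and 20.2% higher, and the share at the unadjusted limit is not given here. The most abundant gene of the list, *Atf4*, had 637 ± 20.01 FPKM (SD, n = 3) and 612 ± 7.63 FPKM (SD, n = 3), with a log2 change of −0.06 (limma, adjusted p = 0.205).

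Upstream of these genes, 33 kinases, RAS and RAF genes and DNA-bound factors were listed and 29 tested. *Mapk14*, which encodes p38 alpha, and *Elk4*, which encodes a partner of SRF at serum response elements, were called lower, and 0 were called higher by limma. At an unadjusted p under 0.05, 14 were lower and 9 higher. The share of all genes at that unadjusted limit is not given here. *Mapk14* had 42.2, 46.5 and 38.1 FPKM with control siRNA and 17.6, 16.3 and 16.5 FPKM with *Xbp1* siRNA, a log2 change of −1.32 (limma, adjusted p = 1.88e-05). *Elk4* had a log2 change of −1.04 (limma, adjusted p = 2.62e-04), which missed the fold limit without control replicate 1 (−0.98), without control replicate 3 (−0.99) and without *Xbp1* siRNA replicate 2 (−0.98). By the adjusted p alone 12 genes of the list were lower and 9 higher, beside 20.2% of all genes lower and 20.2% higher. *Hras*, with a log2 fold change of −0.83, and *Mapk8*, the gene of JNK1, with −0.71, were among the lower, and *Nab1*, the gene of a corepressor of EGR1, with 0.76, among the higher. The other EGR1 corepressor gene of the list, *Nab2*, was lower, with a log2 change of −0.36 (limma, adjusted p = 0.00185). These values are levels of mRNA, not of kinase activity. At the level of protein, the paper reports more phosphorylated JNK after *Xbp1* silencing in CHO-T cells.

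Of 9 genes for the breakdown of JUN and FOS proteins, 8 were tested and 0 were called by limma. By the adjusted p alone 4 were lower and 1 higher, beside 20.2% of all genes lower and 20.2% higher. An unadjusted p under 0.05 was reached by 6, with 5 lower and 1 higher, a limit at which the share of all genes is not given here. *Fbxw7*, a ubiquitin ligase subunit that recognises JUN, had a log2 fold change of −0.70, and the kinase gene *Gsk3b* had −0.62.

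Genes reported elsewhere as AP-1 targets moved in both directions. Of 24 listed, 21 were tested, 5 were called lower and 2 higher, with a median log2 fold change of −0.20. By the adjusted p alone 10 were lower, 6 higher and 5 did not pass. *Il11*, a cytokine gene, had 5.78, 5.53 and 6.21 FPKM with control siRNA and 0.868, 1.11 and 1.22 FPKM with *Xbp1* siRNA, a log2 change of −2.36 (limma, adjusted p = 2.94e-05). *Mmp10*, the gene of the matrix protease stromelysin-2, fell to 25.5% of the control, or 22.4 ± 1.71 FPKM (SD, n = 3) against 87.8 ± 3.91 FPKM (SD, n = 3). *Hmga1* and *Hmga2*, which encode architectural chromatin proteins, fell to 28.6% and 28.7%, and *Cdkn1a*, the gene of the cell cycle inhibitor p21, to 44.1%.

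The 2 genes called higher were *Plau*, the gene of urokinase, and *Dcn*, the gene of the matrix proteoglycan decorin. *Plau* had 1.62, 1.72 and 2.29 FPKM with control siRNA and 6.49, 7.65 and 6.57 FPKM with *Xbp1* siRNA, a log2 change of 1.84 (limma, adjusted p = 9.33e-05). *Dcn* had 6.37 ± 0.416 FPKM (SD, n = 3) and 22.2 ± 0.504 FPKM (SD, n = 3). *Mmp9*, another matrix protease of the list, had a log2 fold change of 0.71, so that the 2 proteases *Mmp9* and *Mmp10* differed in sign.

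Of 18 genes reported as EGR1 targets, 15 were tested, with a median log2 fold change of 0.15. On the adjusted p alone, 6 were lower, 3 higher and 6 did not pass. *Gadd45a*, a stress response gene found through its RefSeq gene ID, was called lower, at 238 ± 6.62 FPKM (SD, n = 3) against 500 ± 10.1 FPKM (SD, n = 3). Its log2 fold change of −1.07 was −0.88 after quantile normalization. *F3*, the gene of tissue factor, and *Icam1*, an adhesion molecule gene also induced by NF-kB, were called higher, with log2 fold changes of 1.40 (adjusted p = 4.68e-04, limma) and 1.74 (adjusted p = 5.43e-07, limma). Over the 6 lists together 106 genes were tested, 11 of them called lower and 5 higher, with a median log2 fold change of −0.08. The lists were written with results of these data known and are not independent evidence of a direction.

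**Figure D4:**
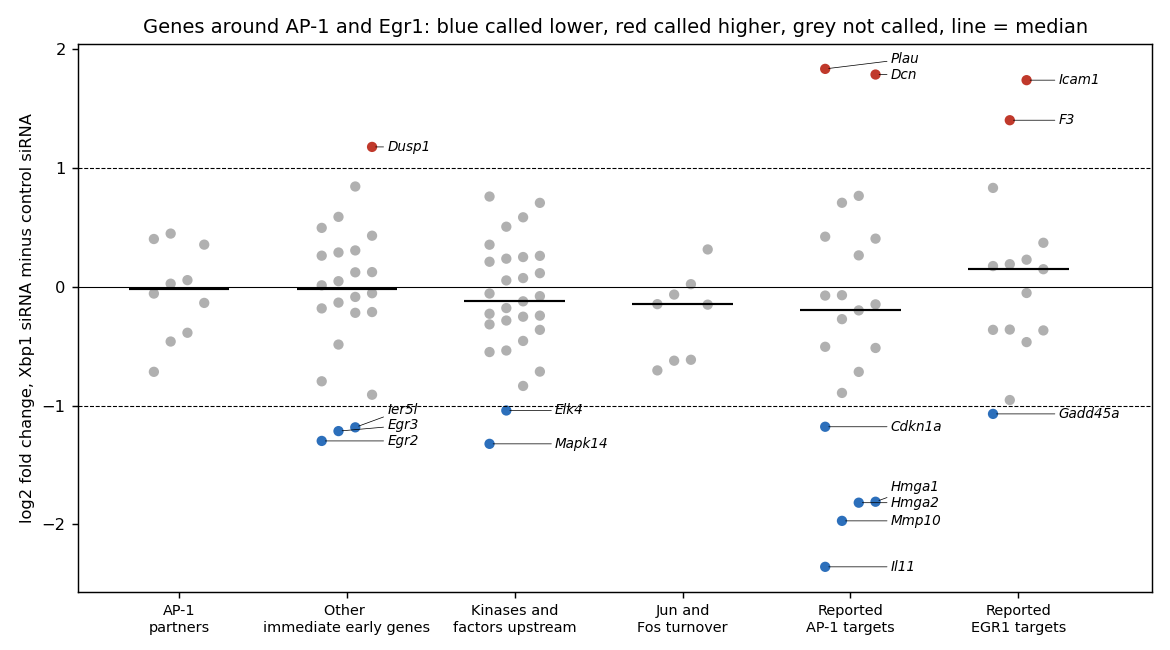
Log2 fold change, Xbp1 siRNA minus control siRNA (vertical axis), of the tested genes of 6 lists; points are genes, black lines the median of each list and dashed lines the fold limits. Blue points are called lower and red points higher, and the medians lie between −0.20 and 0.15.

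Of 9409 other entries with a mean of at least 1 FPKM and a name other than a LOC number, those with the profile nearest to that of *Egr1* over the 6 libraries were *Kdelc2*, *Map1a*, *Arpc1b*, *Slc30a4* and *Dr1*. Their distances, taken over log2 values minus the control mean, ran from 0.126 to 0.165, and their log2 fold changes from −1.65 to −1.57. *Arpc1b*, which encodes a subunit of the actin-nucleating ARP2/3 complex, was the most abundant of them, with 788 FPKM with control siRNA and 255 FPKM with *Xbp1* siRNA. None of the 5 belongs to the AP-1, *Egr* or *Ier* genes or to the lists above.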

How the data were processed

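RNA was sequenced as 6 stranded mRNA libraries on an Illumina HiSeq instrument. The authors deposited 1 file of FPKM per library. The submitters' processing notes name HISAT2 2.1.0 and Cuffdiff 2.2.1 without their roles; the genome build and annotation are not given in the sources used here. Raw counts were not used here, so DESeq2, named in the study's methods, was replaced by limma 3.58.1 (R 4.3.3; lmFit and eBayes with trend) on log2(FPKM + 0.1) over the 14361 entries with a mean of at least 0.1 FPKM, with Benjamini-Hochberg adjustment over all of them. The procedure was tested on simulated data. Tables were made in Python 3.11.15. The labels do not say that the libraries came from separate experiments, so p-values measure the spread between these libraries.

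Low values were read as whole steps of FPKM, within 0.03 steps plus 0.004 per step, taking the smallest numbers of steps that fit. A step can therefore be more than 1 read. This succeeded for 68.7% of 3065 weakly expressed entries and covers counting error only. Genes without a symbol match were sought by RefSeq gene ID (*Ier2*, *Klf2*, *Mmp3* and *Gadd45a* were found). Named genes are the 10 members, called genes of the 6 lists, the most abundant gene of each list without a call (for 1 list it is not reported here), *Xbp1* and the 5 profiles nearest to *Egr1*; other list genes were named after their values were seen. The members and lists were chosen with earlier results of these data known. Alternatives were other pseudocounts, filters, scalings, no trend, no fold limit, the replicate number as a block and leaving out each library. Promoter and protein sequences were not used here.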

Additional observations from a re-analysis of the deposited data

How the results depend on the processing

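Of 482 values recomputed for 34 results, 461 stayed on the same side of the limits or, for counts and medians, close in size, and no called gene changed sign. The uncalled *Fos* turned from 0.11 to −0.28 without control replicate 2, −0.22 without *Xbp1* siRNA replicate 1 and −0.02 without *Xbp1* siRNA replicate 3. *Fosb*, for which no fold is given, changed sign after quantile normalization. *Egr1* and *Ier3* stayed the 2 called members under each alternative that keeps the fold limit; by the adjusted p alone 4 were lower. With that limit dropped, 2904 genes were lower and 2898 higher over all genes, and 42 and 27 in the 6 lists. With a pseudocount of 1, which shrinks weakly expressed genes, 205 genes were called lower and 114 higher, and 7 list genes lower. With a filter at a mean of 1 FPKM, 242 genes were called higher, and the median of the members was −0.74, since *Fos* and *Fosb* drop out. Single genes lost the call 8 times: *Egr2*, *Egr3*, *Ier5l* and *Elk4* with a pseudocount of 1, *Elk4* without each of 3 libraries, and *Gadd45a* after quantile normalization. *Fos* and *Fosb* rest on too few reads for a direction.

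Adding a replicate block gave 353 genes called lower and 363 higher, and 2 members lower. The same numbers do not pair the libraries: across genes, their deviations from the condition means had r values of −0.029, −0.027 and −0.012. The block changed no call among the 25 single genes for which it was run.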
